A study of Mus musculus with 24 samples.

Results

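The 10 apolipoprotein genes Apoa1, Apoa2, Apoa4, Apoa5, Apob, Apoc1, Apoc2, Apoc3, Apoe and Apoh were followed across mouse livers with and without the forkhead factors Foxa1 and Foxa2. They were chosen by name and were 10 of the 19036 genes tested. All 10 were measured, by 16 probes, and each of these probes was well above background on all 24 arrays. The study asked about the part of these factors in the difference between the sexes in liver cancer. RNA was hybridised to single-colour Agilent arrays, 4 per group.

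The 6 groups were untreated dKO females, untreated wild-type females, treated dKO females, treated wild-type females, treated dKO males and treated wild-type males. The label dKO stands for loss of both Foxa1 and Foxa2. The Cre line, the deleted part, the strain and the age at collection are unknown from these sources. Treated mice received the carcinogen DEN at 20 mg/kg on day 14 or 15 of age and then the tumour promoter TCPOBOP at 3 mg/kg, 8 times at intervals of 2 weeks. The label "liver tumor" is given for the tissue of all groups, untreated ones included. Whether the arrays of a group stand for separate animals is not stated, and p-values then reflect only how far these arrays scatter, which may be technical.

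Apolipoproteins are the protein part of the particles that carry triglyceride and cholesterol in blood, and hepatocytes are their main source. Apob is the scaffold of very low density lipoprotein, Apoa1 and Apoa2 are the main proteins of high density lipoprotein, and Apoe is the ligand through which remnant particles are taken up. The C apolipoproteins and Apoa5 set how fast triglyceride is broken down in blood: Apoc2 activates lipoprotein lipase, Apoc3 and Apoc1 hold clearance back, and Apoa5 promotes it. Apoa4 is made in the intestine and, in mice, in liver, where it is known to rise with triglyceride load. Apoh, or beta-2-glycoprotein I, is a phospholipid-binding plasma protein. Forkhead sites are part of the known liver control regions of several of these genes.

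A level is the log2 of the signal divided by the array's 75th percentile of signal. Levels of different probes are not compared. Differences are log2 fold changes ± SE from limma over all 24 arrays, and a gene is called when its p, adjusted over all genes tested, is under 0.05. The median log2 fold change of all genes tested was between -0.05 and 0.04 in the 3 genotype comparisons.

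The probes of the 6 members called in at least 1 genotype comparison are shown because the measurements rest on them. Each has 60 bases. On mm9 they lie at chr9:46037921-46037980 for Apoa1, chr1:173155858-173155917 for Apoa2, chr9:46049661-46050404 for Apoa4, chr7:20257027-20257086 for Apoc2 and chr11:108275610-108275669 for Apoh. The Apoa4 probe spans 744 genomic bases, so it crosses at least one intron. The probes of Apoc3 lie at chr9:46041353-46041412 and chr9:46041363-46041422 and share the 50 bases in capitals, so they are no independent readings. Apoc2 and Apoc3 are on the minus strand and the others on the plus strand.
Apoa1: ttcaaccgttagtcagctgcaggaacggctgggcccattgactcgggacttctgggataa
Apoa2: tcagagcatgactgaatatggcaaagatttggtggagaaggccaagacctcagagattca
Apoa4: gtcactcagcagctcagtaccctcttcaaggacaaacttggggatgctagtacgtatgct
Apoc2: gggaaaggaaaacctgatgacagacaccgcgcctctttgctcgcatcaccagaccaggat
Apoc3, probe that stands for the gene: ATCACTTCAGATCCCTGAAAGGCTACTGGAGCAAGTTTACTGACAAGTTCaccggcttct
Apoc3, second probe: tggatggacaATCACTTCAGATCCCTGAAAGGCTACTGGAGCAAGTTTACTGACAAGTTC
Apoh: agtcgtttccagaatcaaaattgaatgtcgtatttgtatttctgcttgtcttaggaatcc

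Promoters were read from RefSeq (GRCm38.p6) as 300 bases, 250 before and 50 after each transcript start, for 8 of the 10 members. They are shown for the members called lower and for Apoa4 and Apoc2, called higher, in treated females, because loss of a DNA-binding factor is the variable of the study. Motifs were searched on both strands. They were TGTTTAC and TGTTTGC for forkhead factors, CAAAGTCCA for HNF4, GTTAATNAT for HNF1 (N being any base) and TATAAA for the TATA box. No 2 of these overlap in the windows printed here. Matches are in capitals.
Apoa1, chr9:46228380-46228679, plus strand: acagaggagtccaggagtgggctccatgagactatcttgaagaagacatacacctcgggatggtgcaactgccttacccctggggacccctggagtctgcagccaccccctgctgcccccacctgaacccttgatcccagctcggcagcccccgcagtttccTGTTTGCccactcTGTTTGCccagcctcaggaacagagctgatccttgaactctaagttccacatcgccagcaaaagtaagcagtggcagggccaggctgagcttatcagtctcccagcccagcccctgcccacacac
Apoa2, the second of its 2 starts, chr1:171224804-171225103, plus strand: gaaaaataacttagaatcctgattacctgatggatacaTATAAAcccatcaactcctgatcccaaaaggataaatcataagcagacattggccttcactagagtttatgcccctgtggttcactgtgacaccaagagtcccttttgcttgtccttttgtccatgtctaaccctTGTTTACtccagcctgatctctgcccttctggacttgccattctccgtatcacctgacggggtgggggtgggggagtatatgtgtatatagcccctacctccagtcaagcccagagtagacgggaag
Apoh, chr11:108395047-108395346, plus strand: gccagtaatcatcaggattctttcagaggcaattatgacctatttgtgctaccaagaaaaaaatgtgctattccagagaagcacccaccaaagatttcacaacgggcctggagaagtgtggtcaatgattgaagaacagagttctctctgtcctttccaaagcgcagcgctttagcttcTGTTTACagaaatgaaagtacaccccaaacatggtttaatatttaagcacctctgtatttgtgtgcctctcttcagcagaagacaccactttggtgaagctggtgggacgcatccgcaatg
Apoa4, chr9:46240594-46240893, plus strand: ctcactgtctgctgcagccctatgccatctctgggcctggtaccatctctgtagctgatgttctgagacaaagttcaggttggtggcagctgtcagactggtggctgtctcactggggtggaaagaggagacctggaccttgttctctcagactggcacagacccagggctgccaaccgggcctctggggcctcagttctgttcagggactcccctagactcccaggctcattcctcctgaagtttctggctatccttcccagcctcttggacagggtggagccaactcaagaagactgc
Apoc2, chr7:19677892-19678191, minus strand: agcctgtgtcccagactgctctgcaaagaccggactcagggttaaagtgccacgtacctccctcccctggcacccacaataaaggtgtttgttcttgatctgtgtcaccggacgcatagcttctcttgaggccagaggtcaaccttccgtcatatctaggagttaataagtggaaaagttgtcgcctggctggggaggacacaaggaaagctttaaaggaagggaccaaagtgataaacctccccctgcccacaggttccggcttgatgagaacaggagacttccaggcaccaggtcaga

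Apoa1 held TGTTTGC at -88 to -82 and again at -75 to -69, counted from the start. Apoa2 held TGTTTAC at -77 to -71 from its second start, while the window of its first start held none of the motifs. Apoh held TGTTTAC at -71 to -65. Of the promoters not printed, Apoa5 held TGTTTGC at -75 to -69 from one of its starts, and Apob held it on the minus strand at -121 to -115. A promoter of Apoe held TGTTTAC on the minus strand across the start, and the other Apoe promoters held no forkhead motif. Either forkhead motif was thus in a promoter of 6 of 8 members, and in one of 9.47% of the 27025 genes in the table. Single motifs were in 3.65% (TGTTTAC), 5.07% (TGTTTGC), 0.47% (CAAAGTCCA), 0.8% (GTTAATNAT) and 13.6% (TATAAA) of the 32851 promoters. Neither CAAAGTCCA nor GTTAATNAT was found in a promoter of a member. These letters are a description of the windows and show no binding.

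The labels were checked first. Foxa1 was well above background on 0 of 12 dKO arrays and on all 12 wild-type arrays, and Foxa2 was at -7.25 to -1.87 in dKO, against 3.60 to 4.96 in wild type, though it was still above background on 3, 3 and 4 of 4 arrays of the dKO groups. Of 34 hepatocyte markers outside the members, 31 were tested, and these 31 were well above background on all 24 arrays. The 75th percentile of signal was 416.9 to 910.6, and no spot of any probe was saturated. Treated dKO female replicate 2 stood apart: it had the lowest of its group's 4 levels for 8 of the 10 members, and its summed hepatocyte markers were 4647 against 6523 to 8736 on the other 3 arrays. Most member differences and list counts that rest on it are given with and without it, and ratios between neighbouring genes only with it. Replicate 2 also had the highest 75th percentile of signal (910.6) and the lowest spike-in slope (0.923, from the file headers) of the 24 arrays. Spike-in slopes were 0.923 to 0.985 on the treated dKO female arrays, against 0.989 to 1.02 on the treated wild-type female arrays. The part of these technical values in the levels was not tested. In this bulk RNA, fewer hepatocytes and less RNA per hepatocyte cannot be told apart.

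**Figure D1:**
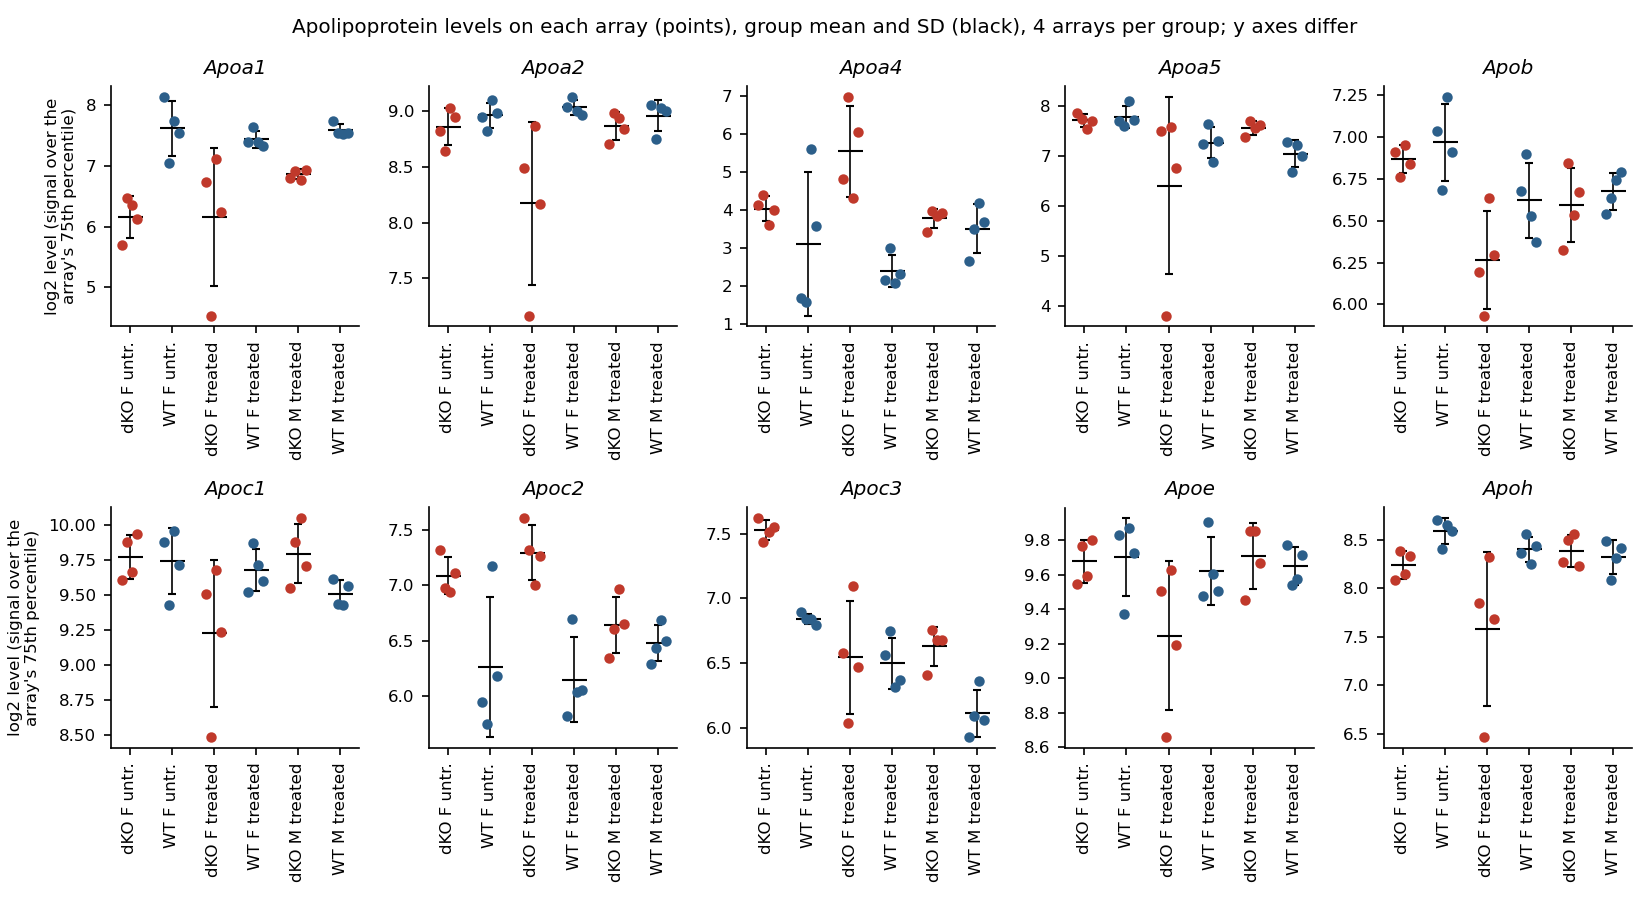
Level of each apolipoprotein gene on each of 24 arrays: the y axis is the log2 of the signal over the array's 75th percentile, the points are arrays, and the black marks are the mean and SD of 4. Apoa1 is lower in all 3 dKO groups than in their wild-type groups with no overlap, and 1 treated dKO female array (replicate 2) lies far below its group for Apoa1, Apoa2, Apoa5, Apoc1, Apoe and Apoh.

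In untreated females, Apoa1 was lower and Apoc3 and Apoc2 were higher in dKO than in wild-type livers, and the other 7 apolipoprotein genes were not called. The opposite calls on Apoa1 and Apoc3 concern adjacent genes. Among all genes tested, 9.83% were called in this comparison, 5.35% higher and 4.48% lower, so 3 of 10 is above that share. In treated females 5 of 10 were called, 2 higher and 3 lower, against 29.7% of all genes (13.9% higher and 15.8% lower). In treated males 1 of 10 was called, against 25.4% of all genes (14.3% higher and 11.2% lower). The median log2 fold change of the 10 members was -0.04 for untreated females, -0.41 for treated females and 0.11 for treated males. Without treated dKO female replicate 2 the value for treated females was -0.19.

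**Figure D2:**
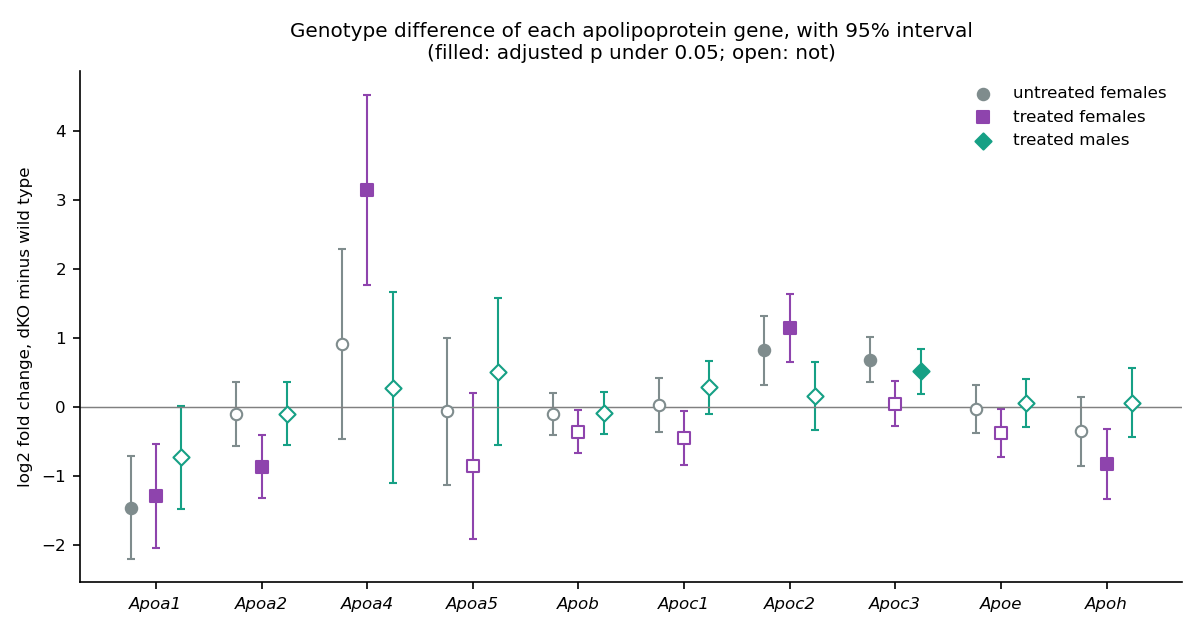
Log2 fold change, dKO minus wild type, of the 10 genes in the 3 settings (untreated females, treated females, treated males); bars are 95% intervals from the fit and filled symbols have an adjusted p under 0.05. The Apoa1 values are -1.45, -1.29 and -0.73, Apoa4 reaches 3.14 in treated females, and most other values lie within 1 log2 unit of 0.

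Apoa1, the main protein of high density lipoprotein, was called lower in dKO in both female settings, and its dKO arrays lay below the wild-type arrays in males too. In untreated females its level was 5.70, 6.48, 6.35 and 6.13 in dKO, against 8.14, 7.04, 7.75 and 7.55 in wild type. It was 6.74, 4.54, 7.12 and 6.24 in treated dKO females, against 7.40, 7.65, 7.39 and 7.34 in treated wild-type females. In treated males it was 6.81, 6.93, 6.78 and 6.94 in dKO, against 7.75, 7.55, 7.52 and 7.54 in wild type. All dKO arrays lay below all wild-type arrays in each setting, as did 22.5%, 21.9% and 28.9% of all genes in one direction or the other. The difference was -1.45 ± 0.36 in untreated females (2.74-fold lower, adjusted p = 0.0126, limma) and -1.29 ± 0.36 in treated females (adjusted p = 0.0110, limma).

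In treated males the Apoa1 difference was -0.73 ± 0.36 and was not called (adjusted p = 0.148, limma), although the groups did not overlap. The spread in that fit is shared by all 6 groups. With only the treated male arrays in the fit, the same difference had an adjusted p of 0.00142. Without treated dKO female replicate 2 the difference in treated females was -0.75, still called. The untreated difference missed the threshold without wild-type replicate 1, at -1.28 (adjusted p = 0.0531), and with slide as a block, at -1.35 (adjusted p = 0.0556). Within slides, comparing 1 array with 1, it was -1.66 and -1.40 in untreated females, -2.85 and -1.16 in treated females, and -0.76 to -0.62 on 3 slides in treated males. Apoa1 was printed on 10 spots per array, with a median SD between spots of 0.04, which covers the reading of a spot and not the spread between arrays. In the authors' deposited table the signed folds of the Apoa1 spots ran from -2.63 to -2.49 in untreated females, -2.07 to -1.91 in treated females and -1.52 to -1.39 in treated males.

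Apoa2, which shares high density lipoprotein with Apoa1, did not follow it in untreated females. Its level there was 8.82, 8.65, 9.02 and 8.94 in dKO, against 8.94, 8.82, 9.10 and 8.98 in wild type, and the difference was -0.10 (95% interval -0.56 to 0.36). In treated females it was 8.49, 7.17, 8.87 and 8.16 in dKO, against 9.04, 9.13, 9.0 and 8.97 in wild type. These groups did not overlap, and the difference was -0.86 ± 0.22 (adjusted p = 0.0065, limma), or -0.53 without replicate 2, still called. In treated males it was 8.71 to 8.99 in dKO, against 8.75 to 9.05 in wild type.

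Apoh, a plasma protein that binds anionic phospholipid, was also lower in treated females. It stood at 7.85, 6.47, 8.33 and 7.69 in dKO, against 8.36, 8.56, 8.25 and 8.43 in wild type. The highest dKO array lay within the wild-type range, and the difference was -0.82 ± 0.24 (adjusted p = 0.0152, limma), or -0.45 without replicate 2, still called. With quantile normalisation it was -0.49 and missed the threshold (adjusted p = 0.052). In untreated females all 4 dKO arrays (8.08 to 8.39) lay below all 4 wild-type arrays (8.41 to 8.71), but the difference of -0.35 ± 0.24 was not called (adjusted p = 0.40, limma). In treated males the levels overlapped, at 8.23 to 8.56 in dKO against 8.08 to 8.49 in wild type.

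Apoa4 had the largest difference of the 10 genes, in treated females. Its level was 4.81, 6.97, 4.32 and 6.04 in dKO, against 2.16, 3.00, 2.09 and 2.30 in wild type. Every dKO array was above every wild-type array, and the difference was 3.14 ± 0.66 (8.84-fold, adjusted p = 0.0016, limma). Without replicate 2 it was 2.67, still called, and within 2 slides it was 3.88 and 4.88. The authors' deposited table gives a signed fold of 10.707.

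Outside treated females the Apoa4 groups overlapped. In untreated females it was 4.12, 4.40, 3.61 and 3.99 in dKO, against 1.69, 1.59, 5.59 and 3.59 in wild type. The wild-type arrays spanned the dKO range on both sides, and the difference of 0.92 ± 0.66 was not called. Without wild-type replicate 3, the array at 5.59, it was 1.74 and was called (adjusted p = 0.0498, limma), and without wild-type replicate 1 or 2 it was 0.44 and 0.41, not called. In treated males it was 3.42 to 3.97 in dKO, against 2.64 to 4.18 in wild type. Of 12 intestinal epithelial markers, Cdx1, Cdx2, Cdh17, Mep1b and Lct were not among the genes tested, which does not show that they were absent. The summed level of the 7 tested was 36.57 to 59.65 in treated dKO females, against 46.34 to 55.33 in treated wild-type females. That sum is mostly Fabp2 and Anpep, and single markers moved both ways: Krt20 was higher by 7.74 ± 0.85 (above background on 2 of 4 wild-type arrays), Vil1 was higher by 2.30 ± 0.67 and Anpep was lower (-0.74 ± 0.15). Their part in the Apoa4 difference was not tested.

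Apoc2, the activator of lipoprotein lipase, was higher in dKO females. In treated females it was 7.60, 7.31, 7.0 and 7.27 in dKO, against 5.82, 6.70, 6.04 and 6.06 in wild type. The groups did not overlap, replicate 2 lay amid the other dKO arrays, and the difference was 1.14 ± 0.24 (2.21-fold, adjusted p = 0.0015, limma). In untreated females it was 7.31, 6.98, 6.94 and 7.11 in dKO, against 5.95, 5.75, 7.17 and 6.18 in wild type. Wild-type replicate 3 lay among the dKO arrays, and it was also the wild-type array with the highest Apoa4. The difference of 0.82 ± 0.24 (adjusted p = 0.0334, limma) lost its call when any of wild-type replicates 1, 2 and 4 or dKO replicates 1, 3 and 4 was left out, with values of 0.65 to 0.87, and with slide as a block it was 0.76 (adjusted p = 0.0713). It also missed the threshold with normexp, with no filter, with median scaling, with array position and with only the groups compared (adjusted p = 0.0578 to 0.106, limma). In treated males the difference was 0.16 (95% interval -0.33 to 0.66).

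Apoc3, which inhibits triglyceride clearance, was higher in dKO in untreated females and in treated males. In untreated females it was 7.62, 7.43, 7.51 and 7.55 in dKO, against 6.89, 6.84, 6.84 and 6.79 in wild type. Both groups were tight and lay apart, with a difference of 0.68 ± 0.16 (1.61-fold, adjusted p = 0.0075, limma), called whichever array was left out. In treated males it was 6.41, 6.76, 6.68 and 6.68 in dKO, against 5.93, 6.10, 6.36 and 6.06 in wild type.

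The treated male groups for Apoc3 did not overlap either, and the difference was 0.52 ± 0.16 (adjusted p = 0.0191, limma). It missed the threshold without wild-type replicate 1 (0.46, adjusted p = 0.0573) and without dKO replicate 2 (0.47, adjusted p = 0.0527), and with median scaling of the arrays (0.39, adjusted p = 0.116). In treated females it was 6.58, 6.04, 7.10 and 6.47 in dKO, against 6.56, 6.75, 6.31 and 6.37 in wild type. Those groups overlapped, with a difference of 0.05 (95% interval -0.28 to 0.38), which quantile normalisation turned into a called 0.39 (adjusted p = 0.0087, limma). The second Apoc3 probe gave 0.77 for untreated females, 0.09 for treated females and 0.65 for treated males.

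Apoa5, which promotes triglyceride clearance, was not called in any genotype comparison. In treated females it was 7.50, 3.80, 7.57 and 6.75 in dKO, against 7.23, 7.63, 6.87 and 7.30 in wild type. Replicate 2 was far below the other 7 arrays, and the difference of -0.85 ± 0.51 was 0.02 without it. In treated males all dKO arrays (7.37 to 7.70) were above all wild-type arrays (6.68 to 7.28), at 0.51 ± 0.51 (adjusted p = 0.51, limma), and with only the treated male arrays in the fit the adjusted p was 0.0423.

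Apob, Apoc1 and Apoe were called in no genotype comparison. Apob, the scaffold of very low density lipoprotein, was 5.93 to 6.64 in treated dKO females, against 6.38 to 6.90 in treated wild-type females, with a difference of -0.36 (95% interval -0.66 to -0.05, adjusted p = 0.0742, limma). In untreated females its difference was -0.10 (95% interval -0.41 to 0.21), and in treated males -0.08 (-0.39 to 0.23). The 5 Apob probes differed between genotypes by -0.36 to 0.02 in the 3 settings.

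Apoe, the ligand for remnant uptake, was 9.55 to 9.80 in untreated dKO females, against 9.37 to 9.87 in untreated wild-type females, a difference of -0.02 (95% interval -0.37 to 0.33). In treated males it was 0.06 (-0.29 to 0.41). In treated females it was 8.66 to 9.63 in dKO, against 9.48 to 9.91 in wild type (-0.38 ± 0.17, adjusted p = 0.0962, limma), and -0.18 without replicate 2. Macrophages also make Apoe, and the summed level of 16 macrophage markers was 182.8 to 250.9 in untreated dKO females, against 67.3 to 132.2 in untreated wild-type females. Its part in the Apoe level was not tested. Apoe and Apoc1 gave the brightest signals of the set, up to 623700 against saturation at 779761 or above.

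Apoc1, an inhibitor of remnant uptake encoded next to Apoe, was 9.61 to 9.93 in untreated dKO females, against 9.43 to 9.95 in untreated wild-type females. The difference was 0.03 (95% interval -0.36 to 0.42). It was -0.45 ± 0.19 in treated females, or -0.20 without replicate 2, and 0.28 ± 0.19 in treated males, and none of these was called. Without dKO replicate 3, the highest array of its group for 8 of the 10 members, Apoc1 (-0.60), Apoe (-0.51) and Apob (-0.48) were called lower in treated females (adjusted p = 0.0136 to 0.0240, limma). Apoc1 was also called without dKO replicate 1 (-0.54) and Apob without wild-type replicate 4 (-0.44).

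**Figure D3:**
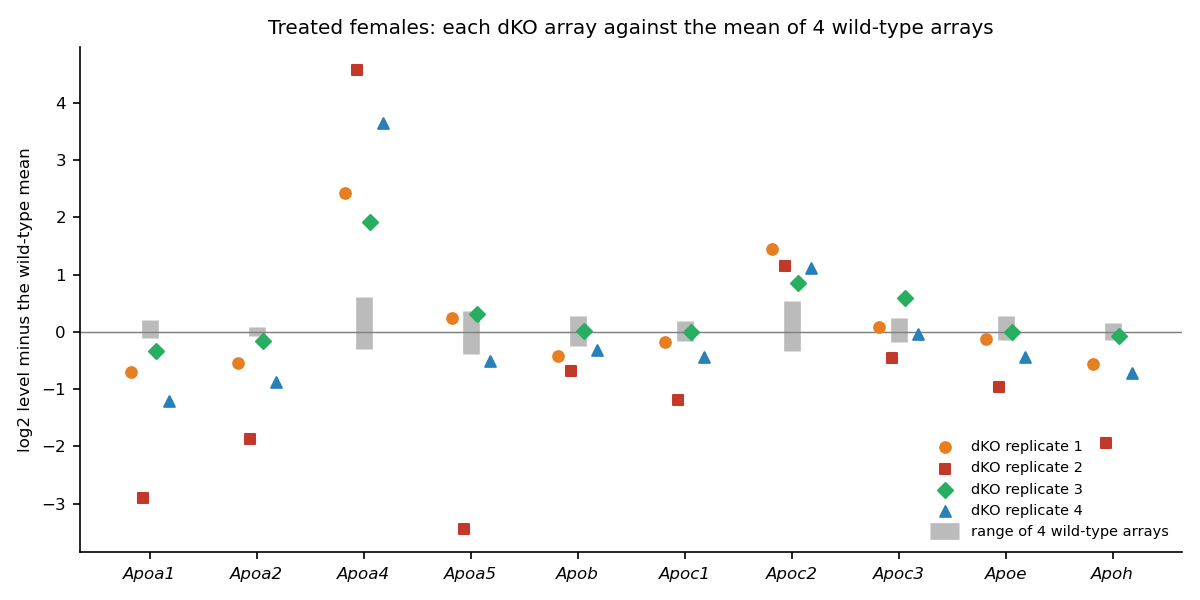
Treated females: log2 level of each dKO array minus the mean of the 4 wild-type arrays (y axis) for the 10 genes (x axis), with grey bars for the range of the wild-type arrays. All 4 dKO arrays are above the bar for Apoa4 and Apoc2 and below it for Apoa1 and Apoa2, and replicate 2 is the lowest of the 4 dKO arrays for 8 of the 10 genes.

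The positions of arrays on the slides followed the groups in treated females: the 4 dKO arrays were at position 4 and the wild-type arrays at positions 1 and 2. Position and genotype cannot be told apart there, and with position as a covariate none of the 5 calls in treated females held, while 25 of all genes were called. With only the treated female arrays in the fit, Apoa1, Apoa2 and Apoh missed the threshold (adjusted p = 0.126 to 0.168, limma) and Apoa4 and Apoc2 were called. No single array left out of the fit ended any of the 5 calls. In treated males the dKO arrays were at positions 3 and 4 and the wild-type arrays at position 1, and Apoc3 with position as a covariate was 1.01 (adjusted p = 0.214, limma). With position as a covariate Apoa1 and Apoc3 were still called in untreated females.

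Most members belong to 2 gene clusters, so neighbours could be compared on the same array, where scaling cancels. On chromosome 9 the order is Apoa1, Apoc3, Apoa4, Apoa5, and the probes lie within 41.2 kb (mm9). On chromosome 7 it is Apoc2, Apoc4, Apoc1, Apoe, and the members' probes lie within 24.8 kb. These ratios were chosen after the values had been seen, and 15 were tested.

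The log2 ratio of Apoc3 to Apoa1 was 0.95 to 1.92 in untreated dKO females, against -1.25 to -0.20 in untreated wild-type females. It was -0.16 to 1.51 in treated dKO females, against -1.08 to -0.84 in treated wild-type females, and -0.40 to -0.10 in treated dKO males, against -1.81 to -1.16 in treated wild-type males. The groups did not overlap in any of the 3 settings, replicate 2 being the highest array of its group, and the dKO minus wild-type differences were 2.14, 1.34 and 1.24. Each had an exact two-sided permutation p of 0.02857, the smallest that 4 against 4 arrays can give (0.0536 adjusted over the 15). In untreated females and treated males this outcome was fixed beforehand and adds no support. There all dKO arrays were already above wild type for Apoc3 and below it for Apoa1. The Apoa5 to Apoa1 ratio differed by 1.39 in untreated females and 1.24 in treated males, with no overlap and the same exact permutation p, but by 0.43 with overlap in treated females. The Apoa4 to Apoa1 ratio differed by 4.43 in treated females with no overlap (exact permutation p = 0.02857), and by 2.37 in untreated females and 1.01 in treated males, where the ranges overlapped (exact permutation p = 0.0571 each). The outcomes for Apoa5 in treated males and for Apoa4 in treated females were fixed in the same way, both genes of the ratio being already apart in opposite directions.

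On chromosome 7 the Apoc2 to Apoe ratio was higher by 1.52 in treated dKO females with no overlap (exact permutation p = 0.02857), and differed by 0.84 in untreated females and 0.10 in treated males, where the ranges overlapped. The Apoc1 to Apoe ratio differed by 0.05 for untreated females, -0.07 for treated females and 0.23 for treated males, and the ranges were apart in treated males. Over all 24 arrays Apoc1 and Apoe were the closest pair of members, with a root-mean-square difference of 0.10 between their centred log2 levels. Their own SDs were 0.31 and 0.27, and this measure is not scaled, so genes that vary little come out close. The pair shares each array's amplification and labelling.

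**Figure D4:**
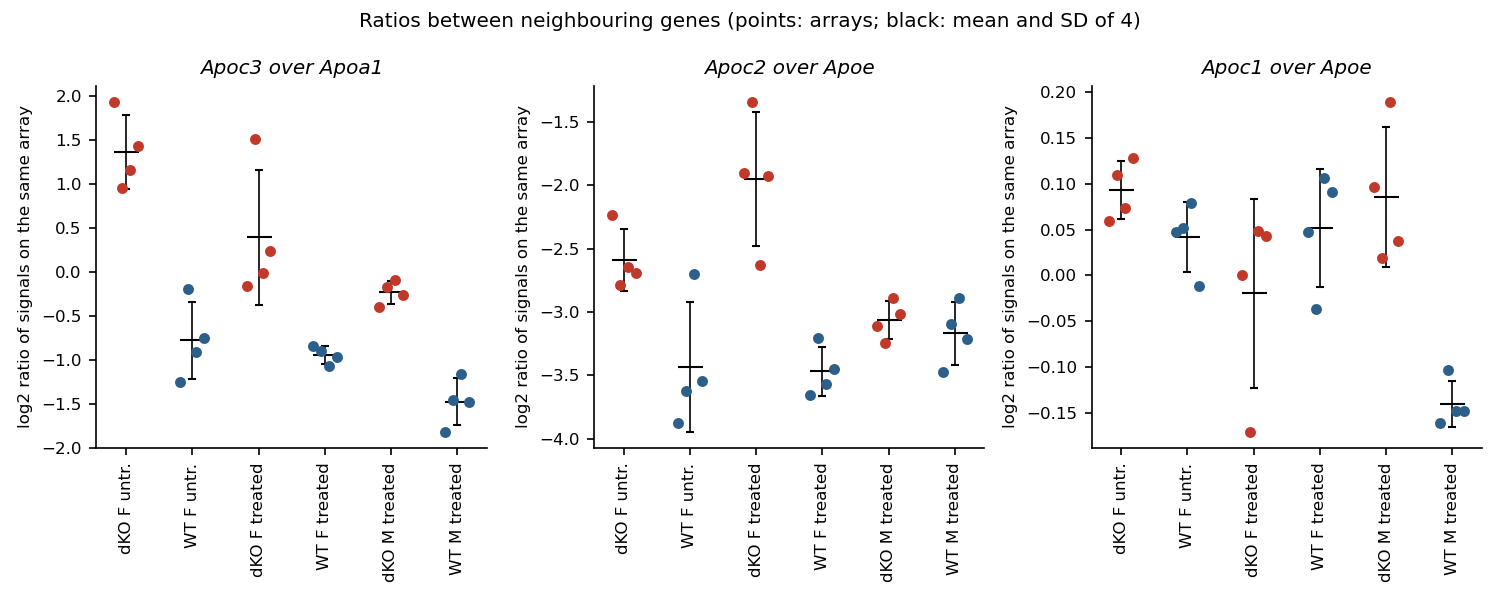
Log2 ratio of the signals of 2 neighbouring genes on the same array (y axis) in the 6 groups, with points for arrays and black marks for the mean and SD of 4. The Apoc3 to Apoa1 ratio is higher in dKO in all 3 settings, the Apoc2 to Apoe ratio is apart between genotypes in treated females, and the Apoc1 to Apoe ratio spans less than 0.5 log2 units in all groups.

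The members were also compared by treatment within each genotype. In wild-type females, treated against untreated, 0 of 10 were called by limma (2 at an unadjusted p under 0.05, Apob and Apoc3), against 17.1% of all genes. Apoc3 was 6.31 to 6.75 in treated and 6.79 to 6.89 in untreated wild-type females. These ranges did not overlap, but the difference was not called (-0.34 ± 0.16, adjusted p = 0.139, limma). The share of all genes apart between these groups is not given here. In dKO females 7 of 10 were called lower after treatment and 0 higher, against 37.8% of all genes called and 21% called lower. Apoc3 was 6.04 to 7.10 in treated dKO females, against 7.43 to 7.62 in untreated dKO females, with a difference of -0.98 ± 0.16 (adjusted p = 0.00016, limma) and no overlap. Apob was 5.93 to 6.64 in treated, against 6.76 to 6.95 in untreated dKO females (-0.60 ± 0.15, adjusted p = 0.0037, limma), also with no overlap, as had 31.6% of all genes between these groups. The other 4 Apob probes gave -0.03, -0.19, -0.30 and -0.55, of which the last 2 passed the threshold over all probes, and the probe at -0.55 was also lower in treated wild-type females (-0.47, adjusted p = 0.0290, limma).

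The other 5 calls, on Apoa2, Apoa5, Apoc1, Apoe and Apoh, had differences of -1.31 to -0.43 with overlapping groups. Without treated dKO female replicate 2 they were -0.44 to -0.24 and none was called, which left 2 of 10. With array position as a covariate these 2, Apoc3 (-0.78, adjusted p = 0.139) and Apob (-0.40, adjusted p = 0.395, limma), were not called either, the treated dKO arrays being at position 4 and the untreated ones at 2 and 3. Each of the 5 also missed the threshold without at least 1 of untreated dKO replicates 1 to 4, and the 4 other than Apoa2 without treated dKO replicate 4, at adjusted p of 0.0503 to 0.114. Apoa1 differed between the dKO female groups by -0.01 (95% interval -0.75 to 0.74), and by 0.53 without treated replicate 2 (adjusted p = 0.0743, limma). Apoa4 went the other way, higher in treated dKO females by 1.51 ± 0.66, and was not called (adjusted p = 0.0791, limma). It was 1.03 to 1.91 over the single arrays left out. With slide as a fixed block (1.89, adjusted p = 0.0390) and with quantile normalisation (1.81, adjusted p = 0.0386, limma) it was called higher. Apoc2 differed by 0.21 (95% interval -0.29 to 0.71). Treatment by genotype was called for 0 of 10 members (3 at an unadjusted p under 0.05: Apoa2, Apoa4 and Apoc3), against 5.25% of all genes, so the contrast between 0 and 7 calls is not shown as a difference between genotypes.

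Between the sexes, 0 of 10 members were called in treated wild-type mice by limma (1 at an unadjusted p under 0.05, Apoc3, lower in males by 0.39), against 6.24% of all genes. In treated dKO mice 3 of 10 were called, all higher in males, against 20.3% of all genes (11.9% higher). Male minus female was 0.69 ± 0.22 for Apoa2, 0.57 ± 0.19 for Apoc1 and 0.81 ± 0.24 for Apoh. Without dKO female replicate 2 these were 0.36, 0.32 and 0.43, and 0 of 10 were called. Apoa2 and Apoc1 also missed the threshold without dKO male replicate 2, 3 or 4 or dKO female replicate 4, and Apoh without dKO male replicate 2 or 3 (adjusted p = 0.0588 to 0.104 over these, limma). Apoa4 (-1.75 ± 0.66, adjusted p = 0.0659) and Apoc2 (-0.65 ± 0.24, adjusted p = 0.0577, limma) were lower in dKO males and not called. Their groups did not overlap, and the share of all genes apart in this comparison is not given here. Both were called lower with quantile normalisation (-1.94 and -0.89), and Apoc2 also with slide as a fixed block (-0.80, adjusted p = 0.0369, limma). The genotype by sex term was called for 0 members (6 at an unadjusted p under 0.05), against 12.3% of all genes, and the smallest adjusted p were 0.0502 for Apoa4 (-2.86 ± 0.94) and 0.0611 for Apoc2 (-0.98 ± 0.34, limma). Without dKO female replicate 3 both interaction terms and the sex comparison in dKO mice gained calls: 2 members were called for genotype by treatment, 6 for genotype by sex and 9 for treated dKO males against females. With every array, 1000, 2336 and 3865 of all 19036 genes were called in these comparisons. Over the single arrays left out, these all-gene counts reached as many as 2408, 4283 and 5897.

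The order of the group means differed between genes. For Apoa1 it was treated dKO females, untreated dKO females, treated dKO males and then the 3 wild-type groups, and the dKO male range overlapped neither the untreated dKO females below it nor the treated wild-type females above it. For Apoc3 it was treated wild-type males, treated wild-type females, treated dKO females, treated dKO males, untreated wild-type females and untreated dKO females, and the ranges of the last 3 of these groups did not overlap one another. For the other members every range overlapped the next.

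The genes most like each called member over 24 arrays were found among 11653 genes by the root-mean-square difference of centred log2 levels. For Apoa1, which itself varied with an SD of 0.79, they were Hc (complement C5) at 0.30, Ces1g at 0.40 and Rapgef4 at 0.40. For Apoa2 and for Apoh the closest was Proc, the anticoagulant protein C, at 0.14 and 0.10, and thrombin's gene F2 was second for Apoa2 at 0.15. For Apoa4 the closest was Sprr1a at 0.67, against its own SD of 1.31. For Apoc2 it was Tmem62 at 0.25 and for Apoc3 Prnp at 0.18.

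Of the genes around the members, those for particle assembly and secretion included 0 called of 16 in untreated females, 1 higher and 6 lower in treated females, and 0 higher and 3 lower in treated males. Mttp, which loads lipid onto apoB, was called in none of the 3 (-0.58, -0.27 and -0.42). In treated females Plin2, a coat protein of lipid droplets, was higher by 0.97 ± 0.29, and A1cf, the RNA-binding partner of the enzyme that edits Apob mRNA, was lower (-1.01 ± 0.22). Sar1b, needed for large particles to leave the endoplasmic reticulum, was lower in treated females (-0.79 ± 0.16) and treated males (-0.51 ± 0.16), and Tm6sf2, which helps to lipidate them, was lower in treated males (-1.20 ± 0.17). Without replicate 2, 0 were higher and 4 lower of the 16 in treated females, and Plin2 was 0.62, not called.

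Among other apolipoproteins and proteins carried on high density lipoprotein, 0 of 15 tested were higher in any setting, and those lower were 1 for untreated females, 6 for treated females and 2 for treated males. Pon1, an esterase bound to high density lipoprotein, was lower in treated females (-2.07 ± 0.66), as were Saa4 (-1.74 ± 0.50) and Apol7a (-1.82 ± 0.50). Apoc4, named after its values were seen because it lies between Apoc2 and Apoc1, was lower there (-0.85 ± 0.22, adjusted p = 0.0078, limma), while Apoc2 beside it was higher. Without replicate 2, 5 were lower, Pon1 was -0.91, Apol7a -1.05 and Apoc4 -0.50, all called.

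Lipases, their inhibitors and sterol exporters had 2 higher and 1 lower of 15 in untreated females, 1 and 8 in treated females, and 0 and 3 in treated males. Lpl, the lipase that Apoc2 activates, was called in all 3 settings, with differences of 2.82 ± 0.22 for untreated females, 0.93 ± 0.22 for treated females and -1.31 ± 0.22 for treated males. Its genotype difference varied with treatment (-1.89 ± 0.31) and with sex (-2.24 ± 0.31), with adjusted p of 0.0029 and 0.00070 from limma. Array position followed these groups, and the Lpl terms with position as a covariate are not given here. Of all genes, calls fell in that fit from 1000 to 4 for genotype by treatment and from 2336 to 684 for genotype by sex. In treated females the hepatic lipase Lipc was lower (-1.46 ± 0.36), as were Angptl6 (-1.71 ± 0.29) and the sterol exporter Abcg8 (-1.20 ± 0.27). Without replicate 2, 1 was higher and 4 lower, and Lipc was -0.90, still called.

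Receptors had 1 higher and 1 lower of 15 in untreated females, 2 and 3 in treated females, and 4 and 3 in treated males. Lrp2, a large endocytic receptor, was higher in treated females (2.36 ± 0.73) and treated males (4.35 ± 0.73). Cd36, a fatty acid and lipoprotein receptor, was lower in treated males (-1.58 ± 0.30). Without replicate 2, 2 were higher and 2 lower of the 15 in treated females.

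Transcription factors that act on apolipoprotein genes had 0 higher and 1 lower of 21 in untreated females, 0 and 8 in treated females, and 5 and 1 in treated males. Nr2f1 was not among the genes tested. Hnf4a was called in none of the 3 (-0.13, -0.33 and 0.23). Creb3l3, an activator of Apoa4 and Apoc2 in mouse liver, was lower in untreated females (-0.65 ± 0.13) and treated males (-0.45 ± 0.13). Foxa3, the third family member, was higher in treated males (0.91 ± 0.27) and stood at 0.81 and 0.60, not called, in untreated and treated females. Srebf1 (-1.25 ± 0.23), Nr5a2 (-0.90 ± 0.28) and Nr0b2 (-0.87 ± 0.26) were lower in treated females. Without replicate 2, 1 was higher and 4 lower of the 21, and Nr5a2 (-0.78) and Nr0b2 (-0.77) were not called.

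Genes that flank both clusters and are no apolipoproteins had 1 higher and 1 lower of 14 in untreated females, 4 and 2 in treated females, and 3 and 0 in treated males. Bcam, a laminin receptor gene near the chromosome 7 cluster, was higher in all 3 (1.34 ± 0.34, 1.52 ± 0.34 and 2.30 ± 0.34), and Sik3, beside Apoa1, was lower by 0.31 and 0.40 in untreated and treated dKO females. Without replicate 2, 2 were higher and 1 lower in treated females.

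Marker genes of hepatocytes and of other cell types also differed between genotypes in this bulk RNA. Hepatocyte markers had 0 higher and 2 lower of 31 in untreated females, 0 and 11 in treated females (1 and 8 without replicate 2), and 3 and 1 in treated males, and Alb was called in none (-0.04, -0.39 and -0.02). Bile duct markers had 7 higher and 1 lower of 12 in untreated females, 10 and 0 in treated females and 10 and 0 in treated males. Their summed level in treated females was 80.91 to 271.7 in dKO, highest on replicate 2, against at most 23.91 in wild type. Stellate markers had 3 higher of 14 in untreated females, 9 higher and 1 lower in treated females (8 and 1 without replicate 2) and 4 higher in treated males. Macrophage markers had 3, 5 and 1 higher of 16, with 1 lower in treated females (1 and 1 there without replicate 2). Endothelial markers had 1 higher of 10 in untreated females, 4 lower in treated females and 1 lower in treated males. Of the 7 intestinal markers tested, 1, 2 and 1 were higher and 2, 1 and 2 lower. The part of these in the apolipoprotein differences was not tested.

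**Figure D5:**
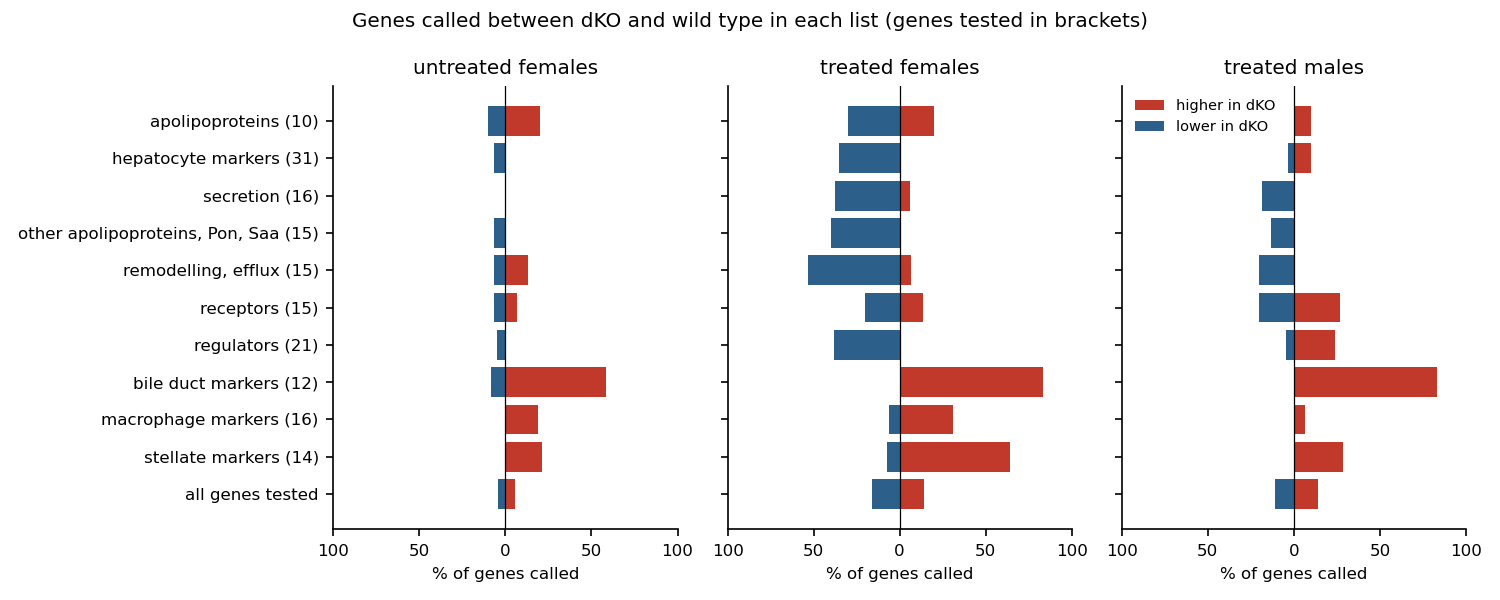
Share of tested genes called higher (right of 0) and lower (left of 0) in dKO than in wild type, for the apolipoproteins, 9 gene lists and all genes tested, in each of the 3 settings. The 10 apolipoproteins have 2 higher and 1 lower, 2 higher and 3 lower, and 1 higher and 0 lower; bile duct markers have the highest share called higher of the groups drawn in each setting.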

How the data were processed

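RNA of 24 liver samples was amplified and hybridised, 1 array per sample, to Agilent single-colour arrays, per the labels' protocols. The deposited intensity values are Feature Extraction output per spot: the authors' processed signal is background-subtracted, per the file headers, and not scaled between arrays. The headers name Feature Extraction 10.5.1.1 and the submitters' processing notes 9.53. The authors' deposited table gives a signed fold score per spot, with a fall as minus the inverse ratio, and its computation is not described in these sources. Probes are placed on mm9 by the files themselves.

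Control spots were left out (43379 others per array), as were spots flagged as outliers, and repeated spots were averaged. The log2 processed signal minus each array's 75th percentile was used for 41174 probes. A probe stayed in if it was well above background on 4 or more of the 24 arrays (28055 did), with the brightest probe standing for each of 19036 genes. Differences came from limma 3.58.1 in R 4.3.3, with 6 group means over 24 arrays and Benjamini-Hochberg adjustment over all genes in each comparison, and the fit was tested on simulated data. Ratios on 1 array were compared by an exact permutation test (scipy 1.17.1). The number of arrays limits the precision.

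The 10 members and all gene lists were chosen with earlier results of these data known. From each list, up to 3 genes with the largest called change in each direction were named, together with fixed genes (Hnf4a, Nr2f1, Foxa1, Foxa2, Foxa3, Alb and Mttp), and some genes under this rule are not reported here. Alternatives were another probe rule, background correction, scaling, filter, variance model and set of samples, slide, array position or replicate number in the fit, outlier spots kept, and each array left out in turn. Comparisons that share a group share its arrays.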

Additional observations from a re-analysis of the deposited data

Results flagged for a closer look

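In each of 60 sets of 4 arrays (10 genes in 6 groups), the highest and lowest array were set against the other 3 by Dixon's ratio of the gap to the range, judged by the 95% critical value for 4 values. In 2 sets a treated wild-type male array stood far from the others. Apoa1 was 7.75 on replicate 1, the highest of 4, with a ratio of 0.886, and the gene was lower in dKO in that comparison with or without it (-0.75 to -0.67 over the single arrays left out). Apoa2 was 8.75 on replicate 2, the lowest of 4, with a ratio of 0.840, and its difference there was -0.16 to -0.04 over the single arrays left out, never called. Chance flags about 1 in 20 such sets.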

How the results depend on the processing

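Over 13 alternatives and every array left out in turn, 2050 member differences were recomputed: 0 called differences changed sign, 60 not called did, 108 calls were lost and 55 gained, and the cause was not tested. Apoc3 in untreated females was called under every single array left out. With only the groups compared in the fit, members called were 2 in treated females, 3 in treated males, 2 in dKO females by treatment, 0 in treated dKO by sex and 2 for genotype by sex. With normexp 3 were called in dKO females by treatment and 1 in treated dKO by sex, with no filter 4 and 1. With the filter on all 24 arrays 6 were called in treated dKO by sex and 2 for genotype by sex, and with trend and robust estimation 1 for genotype by sex. With array position as a covariate 0 were called in treated females, treated males, dKO females by treatment and treated dKO by sex. With slide as a fixed block 1 was called in untreated females, 1 in treated dKO by sex, 1 for genotype by treatment and 2 for genotype by sex, and with slide as a random block 2 for genotype by sex. With median scaling 0 were called in treated males and 1 in treated dKO by sex, and with quantile normalisation 1 in treated wild type by sex and 2 for genotype by sex. The probe rule and kept outlier spots moved no count of members by more than 1.5 times. Leaving out single arrays gave 1 to 4 members called in untreated females, 5 to 8 in treated females, 0 to 1 in treated males, 2 to 8 in dKO females by treatment, 0 to 9 in treated dKO by sex, 0 to 2 for genotype by treatment and 0 to 6 for genotype by sex. In the same order, all genes called were then 1129 to 1779, 3921 to 7104, 3866 to 4710, 5547 to 8243, 2302 to 5897, 474 to 2408 and 1462 to 4283.

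Same-numbered arrays of different groups did not pair: 10 of 60 pairs correlated above 0.1, and 6 of 24 arrays correlated best with their own number. With the replicate number as a block, 3, 5, 1, 0, 5, 0, 3, 0 and 0 members were called in the 9 comparisons, and Apoa5 (adjusted p = 0.0530) and Apoe (adjusted p = 0.0636, limma) lost their calls in dKO females by treatment.

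Of all genes, 1871 were called in untreated females (739 with normexp, 982 with position, 1185 with the slide block), 5662 in treated females (2093 with only those groups, 25 with position) and 4844 in treated males (2642 with normexp, 137 with position). In dKO females by treatment it was 7201 (282 with position, 4338 with only those groups), and in treated dKO by sex 3865 (1100 with only those groups, 1251 with position, 2232 with normexp). In wild-type females by treatment it was 3249 (1902 with normexp, 1963 with position), in treated wild type by sex 1188 (488 with position, 525 with normexp), for genotype by treatment 1000 (4 with position, 426 with normexp, 492 with only those groups, 572 with no filter) and for genotype by sex 2336 (684 with position, 1271 with normexp, 1375 with only those groups, 1530 with no filter). The share of calls that were higher was 46.8% in treated females against 25.8% with normexp, 56.1% in treated males against 37.3% with median scaling, 50.7% in wild-type females by treatment against 37.8%, and 55.5% for genotype by sex against 40.8%, both with median scaling. The median of all genes was -0.22 with normexp against -0.05 in treated females, and -0.09 with median scaling against 0.04 in treated males.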

Other observations

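The acute-phase apolipoproteins, which bind high density lipoprotein in inflammation, were among the genes that moved with treatment in both genotypes of females. Saa3 was higher in treated than in untreated wild-type females by 3.49 on the log2 scale, Saa1 by 2.90 and Saa2 by 2.90, and in treated than in untreated dKO females by 2.82, 2.64 and 2.49. Without treated dKO female replicate 2 the last 3 were 2.48, 2.54 and 2.41, and Saa3 was no longer called (adjusted p = 0.0915, limma). In the same comparisons 0 of the 10 apolipoproteins were called higher, Apoa4 being at 1.51 and not called in dKO females. Of all 19036 genes, 3249 were called in wild-type females, 50.7% of them higher, and 7201 in dKO females, 44.4% of them higher. With array position as a covariate 282 genes were called in dKO females, and the Saa values in that fit are not given here. In the authors' deposited table the sign matched for 16 of 16 called differences of members and for 43 of 50 compared in all. These cover the comparisons by genotype and by treatment, and those between the sexes were left out. The deposited table describes the same groups of this series, so the match of signs is no independent support.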
